A study of Mus musculus with 9 samples.

Results

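The semaphorins, plexins, neuropilins, Eph receptors, ephrins, Slits and Robos are among the main families of contact and secreted cues, with their receptors, that steer growing axons and dendrites. They were selected here by gene symbol from the deposited expression table of mouse cortical neurons. The symbols of these families (classes 3 to 6 of the semaphorins) matched 59 rows of the table, and 52 of them had a value above 1 in at least 3 of the 9 libraries. Those 52 genes, of 12923 genes above the same limit and 24054 rows in all, are 17 semaphorins, 8 plexins, 2 neuropilins, 8 Eph receptors A, 5 Eph receptors B, 4 ephrins A, 3 ephrins B, 3 Slits and 2 Robos. The other 7 matching symbols (Efna1, Epha1, Plxnb3, Robo3, Robo4, Sema3b and Sema3g) stayed below the limit and were not tested, Plxnb3 with a highest value of 1.07 and Sema3b with 1.39.

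The cells were primary cortical neurons of C57BL/6 mice, all labelled wild type and kept for 6 days in culture. Normoxia libraries (1, 2 and 3) came from cultures in normal oxygen, hypoxia libraries (7, 8 and 9) from cultures given 0.2% oxygen for 7 hours, and hypoxia with T3 libraries (11, 12 and 13) from cultures under that hypoxia whose medium also held T3 (triiodothyronine, the active thyroid hormone) at 10 nM. Normoxia with T3 was not analysed here, so an effect of T3 without hypoxia cannot be read from these libraries. Nothing in the labels tells whether 3 libraries of 1 group are 3 cultures or repeats of 1. The p-values are thus measured against a spread between libraries that may be only technical.

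Semaphorins are secreted (class 3) or membrane-bound (classes 4 to 6) ligands. Most act on plexins, and secreted class 3 members mostly need a neuropilin as the binding partner of a class A plexin. Ephrins A are held to the membrane by a lipid anchor and ephrins B span it. Both bind Eph receptor tyrosine kinases on a neighbouring cell, and signals can run into either cell. Slits are large secreted proteins that repel axons through Robo receptors. In the developing cortex these systems are known for guiding callosal, corticospinal and thalamic axons, for neuron migration, and later for the number and shape of dendritic spines and synapses.

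Values are CPM (read counts scaled to a common library size) after the authors' TMM scaling, in which 1 read was worth 0.0302 to 0.0565 CPM, at 17182339 to 33937842 reads per library. Log2 changes are differences of group means of log2(CPM + 1), with the standard error of the fit, so they understate the change of genes near or below 1 CPM. A gene is called higher or lower at an adjusted p under 0.05. The labelled exposures were compared with genes reported earlier from these data as responding to them, so the outcome was known beforehand. The glucose transporter gene Slc2a1 was at 9.24 to 10.1 CPM in normoxia and 47.8 to 60.01 CPM in hypoxia. The T3-responsive gene Hr was at 4.35 to 5.19 CPM in hypoxia and 30.1 to 34.2 CPM with T3. The 6 neuron markers were all above the limit, with summed values of 4851 to 5124, 3391 to 3841 and 3021 to 3257 CPM in normoxia, hypoxia and hypoxia with T3. Of the endothelial and microglial markers, 0 of 7 and 0 of 6 passed the limit, and the endothelial gene Tie1 was at 0 in every library. Astrocyte markers summed to 11.9 to 88.8, 40.01 to 187 and 82.1 to 167 CPM, and varied within each group. Oligodendrocyte lineage markers (37.7 to 140.4, 72.7 to 209.9 and 129 to 184 CPM) and neural progenitor markers (9.91 to 85.5, 38.9 to 119 and 62.9 to 117 CPM) had the same library order as the astrocyte markers within normoxia and within hypoxia. On the first principal component over all genes, hypoxia 9 (14.0) lay nearer to the T3 libraries (17.6 to 32) than hypoxia 7 (2.92) and hypoxia 8 (2.52) did.

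In hypoxia, 28 of the 52 guidance genes were lower than in normoxia, 1 was higher (Ephb3), and 23 were not called. Over all 12923 genes, 19.3% were called lower and 14.3% higher (33.6% in either direction). The median log2 change of the 52 genes was -0.31, and that of all genes was -0.00076. Every Slit, Robo, neuropilin and class A plexin fell, 11 genes in all. In hypoxia with T3 against hypoxia, 10 guidance genes were lower (Efnb2, Epha7, Nrp1, Plxnc1, Robo1, Robo2, Sema3a, Sema4d, Sema6a and Slit2) and 2 were higher (Epha2 and Plxnd1), where 3.75% and 2.73% of all genes were called (6.48% in either direction). The median was -0.14, against -0.0064 over all genes. In hypoxia with T3 against normoxia, 31 guidance genes were lower and 4 were higher (Epha2, Epha8, Epha10 and Ephb3), where 29.5% and 25.5% of all genes were called. The medians there were -0.47 and 0.0016. These comparisons share libraries, and the values of each are given side by side below. The neuron marker sum moved in the same direction as these genes, mostly through Tubb3 (2262 to 2578 CPM in normoxia, 922 to 1357 in hypoxia and 563 to 838 with T3). The other 5 neuron markers did not move together. Syt1 was lower in hypoxia and with T3 against normoxia, Rbfox3 was lower in hypoxia alone, Map2 and Snap25 were called in no comparison, and Nefl was higher in all 3 (154 to 172, 175 to 199.9 and 251 to 257 CPM). The part of the neuron markers in the results was not tested, and in bulk libraries fewer cells of a type and less RNA per cell cannot be told apart.

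**Figure D1:**
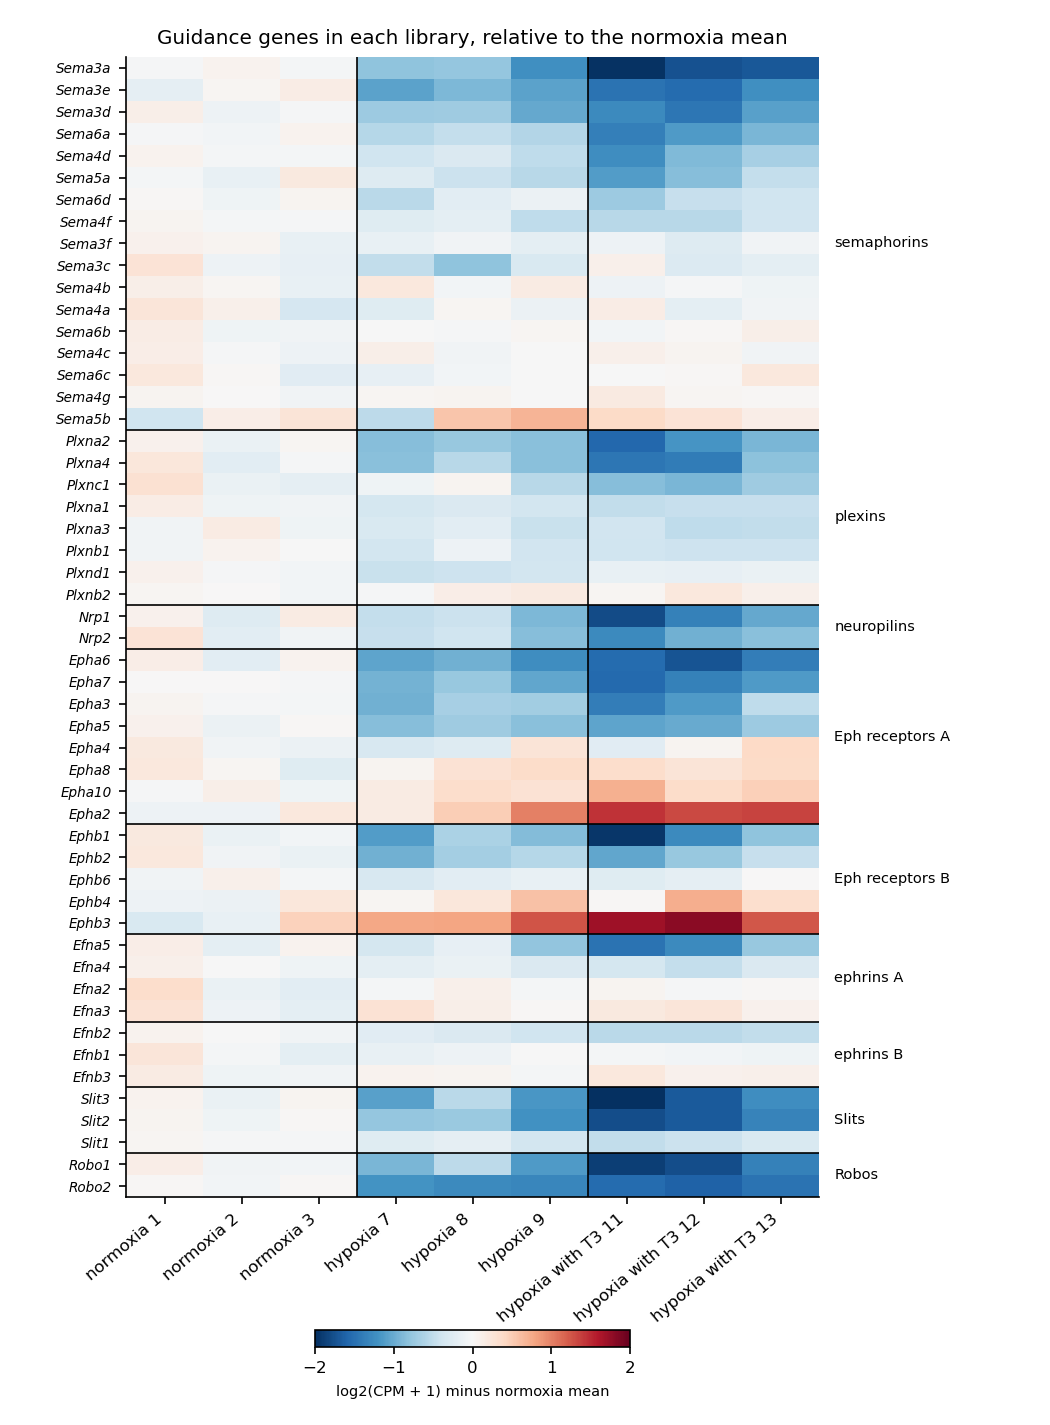
Each row is 1 of the 52 guidance genes, grouped by family, and each column is 1 library. Colour is the gene's log2(CPM + 1) minus its mean over the 3 normoxia libraries, from blue (lower) to red (higher), with colours capped at -2 and 2. Blue blocks cover the Slits, the Robos, the neuropilins and parts of the semaphorin, plexin and Eph families in hypoxia and hypoxia with T3, and red rows are Ephb3 and Epha2.

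Complete separation of the libraries was counted too. All 3 hypoxia libraries lay below all 3 normoxia libraries in 31 guidance genes and above them in 2, against 27.0% and 20.7% of all genes. All 3 T3 libraries lay below all 3 hypoxia libraries in 17 and above them in 6, against 15.8% of all genes in each direction. Between hypoxia with T3 and normoxia the counts were 31 below and 4 above, against 33.0% and 29.8%. Averaged over the 52 genes, the log2 difference from the normoxia mean was -0.39, -0.27 and -0.37 in hypoxia 7, 8 and 9, and -0.61, -0.54 and -0.40 in hypoxia with T3 11, 12 and 13. T3 13 was thus the T3 library closest to the hypoxia libraries.

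The scale of the table matters for the size of these counts. With every library rescaled to the same column sum, the median of all genes moved to 0.13 in hypoxia against normoxia. Then 20 guidance genes were called lower and 7 higher. Of all 12923 genes, 1232 were then lower and 3974 higher, from 2497 and 1846. Among all calls of that comparison, the share called higher rose from 42.5% to 76.3% under this scaling. In hypoxia with T3 against hypoxia it fell from 42.1% to 29.0%, and in hypoxia with T3 against normoxia it rose from 46.4% to 61.3%. No called guidance gene changed direction under this or any other setting tried.

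The stretches just upstream of 4 members are printed to show both directions of call with T3 against hypoxia. Epha2 and Plxnd1 were the guidance genes that rose, and Robo1 and Nrp1 were 2 of the 10 that fell, chosen after their values and the matches in their windows were seen. Each is the 250 bases before the start in RefSeq (GRCm38.p6), read 5′ to 3′ on the gene's strand, with no annotated exon of the GENCODE M21 annotation in it. Those of Robo1 and Nrp1 lie inside the longer GENCODE spans of these genes, so each precedes an internal start. Capitals mark TGACCT, the reverse complement of AGGTCA, the short element that thyroid hormone receptors are known to bind; the Robo1 window holds neither, so it has no capitals.
Epha2, chr4:141300971-141301220, forward strand: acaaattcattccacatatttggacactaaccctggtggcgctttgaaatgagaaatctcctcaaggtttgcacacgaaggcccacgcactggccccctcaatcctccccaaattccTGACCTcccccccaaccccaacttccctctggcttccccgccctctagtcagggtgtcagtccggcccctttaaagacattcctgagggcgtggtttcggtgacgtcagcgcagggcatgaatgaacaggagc
Plxnd1, chr6:115995006-115995255, reverse strand: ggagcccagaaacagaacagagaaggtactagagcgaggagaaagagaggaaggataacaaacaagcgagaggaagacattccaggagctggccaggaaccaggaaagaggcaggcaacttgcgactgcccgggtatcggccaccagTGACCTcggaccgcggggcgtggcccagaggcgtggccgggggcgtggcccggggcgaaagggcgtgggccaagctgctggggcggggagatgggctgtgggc
Nrp1, chr8:128358823-128359072, forward strand: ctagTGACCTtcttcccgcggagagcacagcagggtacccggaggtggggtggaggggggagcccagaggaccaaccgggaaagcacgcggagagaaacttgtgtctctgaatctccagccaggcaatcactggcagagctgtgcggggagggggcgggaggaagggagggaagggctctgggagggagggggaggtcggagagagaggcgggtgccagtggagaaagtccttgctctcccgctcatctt
Robo1, chr16:72662899-72663148, forward strand: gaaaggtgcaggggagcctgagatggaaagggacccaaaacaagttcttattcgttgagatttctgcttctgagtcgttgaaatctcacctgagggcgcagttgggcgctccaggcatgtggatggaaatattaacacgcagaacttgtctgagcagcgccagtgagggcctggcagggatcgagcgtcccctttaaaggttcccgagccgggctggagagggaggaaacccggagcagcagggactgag
The 250 bases before each RefSeq start, here with or without annotated exons in them, were searched for 46 of the 52 genes, 61 windows in all since some genes have several starts. AGGTCA or TGACCT occurred in 8 of the 61 windows (13.1%) and in 10.5% of the 12486 windows of genes above the limit. Of the 16 windows of the genes called with T3 against hypoxia, 4 held it (25%): those of Epha2, Plxnd1 and Nrp1, and 1 of the 3 windows of Sema4d. The core of the hypoxia response element, ACGTG or its reverse complement CACGT, occurred in 12 of the 61 windows (19.7%), in 4 of 29 windows of genes lower in hypoxia (13.8%), and in 21.5% of windows of genes above the limit. Of the 4 windows printed, 0 held ACGTG or CACGT. The Sema3a window held neither motif. The window of Ephb3, the gene that rose in hypoxia, held it. Both motifs were searched on both strands and counted separately, since they can share letters at their ends. The matches are letters in a window and are not shown to be sites.

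All 5 Slit and Robo genes (Slit1, Slit2, Slit3, Robo1 and Robo2) were lower in hypoxia, with a median log2 change of -0.91, and 3 of 5 were lower again with T3. Over all genes 19.3% were lower in hypoxia and 3.75% with T3 against hypoxia. All 5 span at least 100 kb, and of other genes that long 54.99% and 14.8% were lower. With equal column sums 4 of the 5 remained called in hypoxia. Per kilobase of exon, the ligand with the highest level in normoxia was Slit1 (26.1 CPM per kb), followed by Slit3 (4.204) and Slit2 (3.69). The length is that of all annotated exons merged, 25.4 kb for Slit2 and 6.07 kb for Slit3. By mean CPM in normoxia Slit2 (93.8) stood above Slit3 (25.5), so their order depends on the length used. The receptors Robo1 and Robo2 stood at 13.6 and 11.6 CPM per kb.

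Slit2, a secreted repellent of many forebrain axons, spans 325 kb of chromosome 5 (chr5:47983138-48307733, GRCm38). Its values were 97.8, 88.1 and 95.5 CPM in normoxia, 54.5, 55.5 and 39.9 CPM in hypoxia and 26.6, 28.7 and 36.5 CPM in hypoxia with T3. No library of one group overlapped another group, and hypoxia 9 was the lowest of its group. The log2 change was -0.91 ± 0.13 in hypoxia (adjusted p = 0.00072) and -0.69 ± 0.13 with T3 against hypoxia (adjusted p = 0.023). The T3 call of Slit2 was lost with no limit on low values and without hypoxia 7, hypoxia 8, T3 11 or T3 12 (adjusted p up to 0.11). Slit3 was at 26.7, 23.2 and 26.6 CPM, then 11.5, 17.2 and 10.8 CPM, then 5.68, 7.25 and 10.2 CPM. Its 3 groups did not overlap either; the fall in hypoxia was called (-0.93 ± 0.19, adjusted p = 0.0045), and that with T3 missed the threshold (-0.71 ± 0.19, adjusted p = 0.052). Slit1 fell least, from a mean of 155 ± 4.195 CPM (SD, n = 3) to 129 ± 8.48 CPM in hypoxia (-0.26, adjusted p = 0.0093), and stood at 116 ± 7.71 CPM with T3. In T3 against normoxia the log2 changes were -0.41, -1.60 and -1.63 for Slit1, Slit2 and Slit3.

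Robo2 had the largest fall of all 52 genes in hypoxia on the log2(CPM + 1) scale; by the ratio of means Sema3d, near 1 CPM, fell further (60.97% lower). This receptor gene spans 519.99 kb (chr16:73891839-74411825) and was at 199, 189.6 and 200.2 CPM in normoxia and 85.5, 80.97 and 79.2 CPM in hypoxia, 58.3% lower by the means. With T3 it was at 66.7, 63.2 and 70.1 CPM. The libraries of each group lay close together and the groups were fully apart. The log2 changes were -1.25 ± 0.06 (adjusted p = 1.7e-07) and -0.29 ± 0.06 (adjusted p = 0.022). Robo1, whose upstream window is printed above, lies on the same chromosome (chr16:72308306-73046095, 738 kb). Its values were 245, 214 and 216 CPM in normoxia, 119, 156 and 102 CPM in hypoxia and 59.9, 65.3 and 86.9 CPM with T3. Hypoxia 8 was the highest hypoxia library and T3 13 the highest T3 library, yet the groups did not overlap. The change was -0.86 ± 0.15 in hypoxia (adjusted p = 0.0021) and -0.81 ± 0.15 with T3 (adjusted p = 0.022). Both T3 calls were lost without hypoxia 7, hypoxia 8, T3 11 or T3 12, and that of Robo1 also with no limit on low values (adjusted p up to 0.095 for Robo1 and 0.088 for Robo2). Against normoxia, Robo1 with T3 was 68.6% lower and Robo2 66.05% lower.

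**Figure D2:**
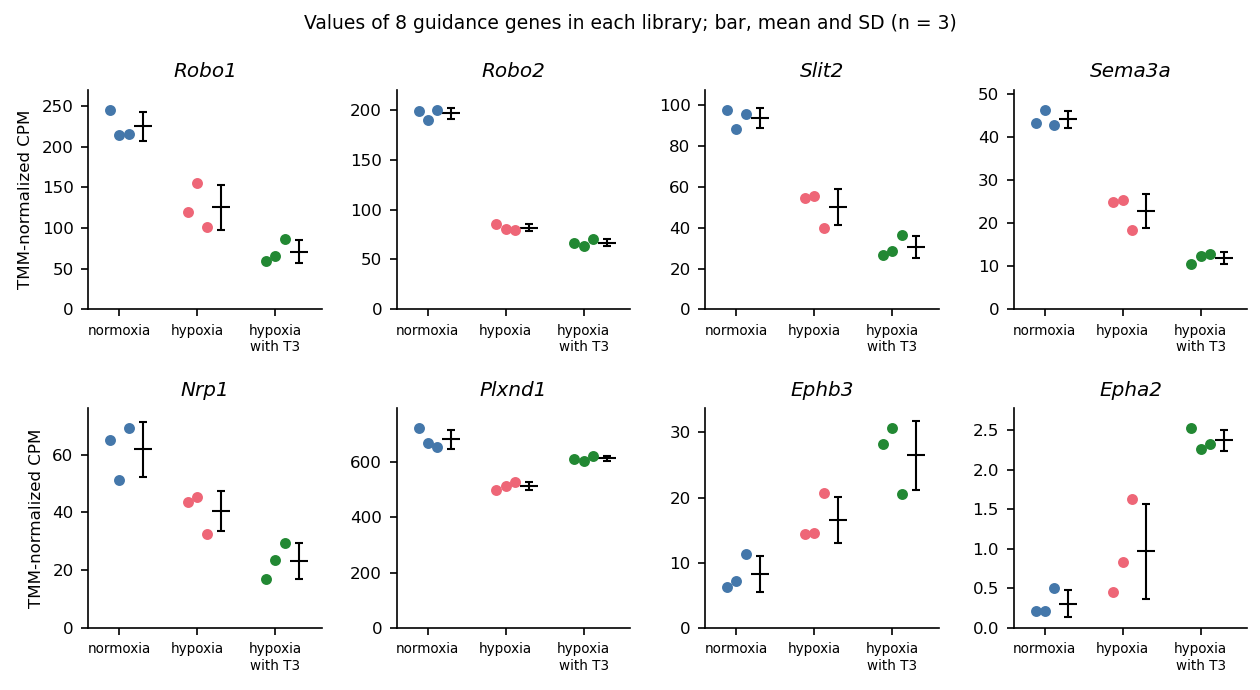
TMM-normalized CPM of 8 guidance genes in each library (points), with the mean and SD of each group (bars, n = 3) and every axis starting at 0. Robo1, Robo2, Slit2, Sema3a and Nrp1 step down from normoxia to hypoxia to hypoxia with T3, Plxnd1 is lowest in hypoxia and lies between the other groups with T3, and Ephb3 and Epha2 are highest with T3.

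Of the list of 13 genes known to act downstream of Robo receptors, 7 were lower in hypoxia and 0 were higher, where 19.3% and 14.3% of all genes were called. The median was -0.23, and -0.00076 over all genes. Gene span was not taken into account in this count. They included the srGAP genes, whose products bind Robo tails: Srgap1 (-0.78), Srgap2 (-0.59) and Srgap3 (-0.25). Enah, an actin-filament elongation factor recruited by Robo, also fell (264, 266 and 304 CPM in normoxia, 189, 184 and 173 CPM in hypoxia, -0.61). With T3 against hypoxia, 3 of the 13 were lower (Srgap2, Enah and Sos1) and Evl, a relative of Enah, was higher (0.17, adjusted p = 0.047), where 3.75% and 2.73% of all genes were called.

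Class 3 semaphorins, the secreted class, had 5 members above the limit. Sema3a, Sema3c, Sema3d and Sema3e were lower in hypoxia and Sema3f was not called (23.6 to 30.4 CPM over the 9 libraries). Over all genes 19.3% were lower in hypoxia. The class 3 genes called there all span at least 100 kb, and of other genes that long 54.99% were lower. With T3 against hypoxia, 1 of the 5 was lower, Sema3a, where 3.75% of all genes were.

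Sema3a, the classical collapsing cue for axon growth cones, had the largest fall with T3 against hypoxia on the log2(CPM + 1) scale. The gene (chr5:13125414-13602565, 477 kb) was at 43.3, 46.5 and 42.9 CPM in normoxia, 24.98, 25.5 and 18.4 CPM in hypoxia and 10.5, 12.4 and 12.9 CPM with T3. The 3 groups were fully apart. Its log2 change was -0.93 ± 0.12 in hypoxia (adjusted p = 0.00035) and -0.88 ± 0.12 with T3 against hypoxia (adjusted p = 0.0084). The mean with T3 was 72.97% lower than in normoxia and 47.9% lower than in hypoxia, where that of Sema3d, uncalled there, was 54.2% lower. Of the 12 calls with T3 against hypoxia, this is the 1 that was kept under every alternative and without any 1 library (highest adjusted p 0.0425).

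Sema3e, a ligand that can bind Plxnd1 without a neuropilin, went from 12.7, 15.04 and 16.2 CPM in normoxia to 6.44, 7.35 and 6.42 CPM in hypoxia (-1.01 ± 0.12, adjusted p = 0.00021). It was at 4.58, 4.39 and 5.63 CPM with T3, below every hypoxia library but not past the threshold (-0.40, adjusted p = 0.064). Sema3d was near the limit, at 2.75, 2.21 and 2.39 CPM in normoxia and 1.07, 1.104 and 0.6902 CPM in hypoxia (-0.82, adjusted p = 0.0023). It exceeded 1 in 3 normoxia, 2 hypoxia and 0 T3 libraries, so it passed the limit through the groups where it was high. Sema3c behaved differently from the other 3: it fell in hypoxia, from 15.4, 11.7 and 11.2 to 8.76, 6.79 and 10.1 CPM (-0.53, adjusted p = 0.025), and with T3 it was at 13.6, 10.3 and 10.99 CPM, above every hypoxia library (0.41 ± 0.16, adjusted p = 0.12, not called). The hypoxia call of Sema3c was lost with equal column sums, with no limit on low values, without hypoxia 8 and without normoxia 1 (adjusted p up to 0.094).

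The neuropilins, the ligand-binding partners for secreted semaphorins, both fell in hypoxia, where 19.3% of all genes were lower. Both span at least 100 kb, and of other genes that long 54.99% were lower. Nrp1, whose upstream window is printed above, was at 65.2, 51.2 and 69.2 CPM in normoxia, 43.7, 45.3 and 32.4 CPM in hypoxia and 16.98, 23.4 and 29.5 CPM with T3. The groups did not overlap, although hypoxia 9 (32.4) and T3 13 (29.5) came close. The changes were -0.60 ± 0.19 (adjusted p = 0.029) and -0.79 ± 0.19 (adjusted p = 0.036). The hypoxia call was lost with equal column sums, with no limit on low values and without hypoxia 9, normoxia 1 or normoxia 3 (adjusted p up to 0.11). The T3 call was lost with no limit on low values, with the 2 groups alone and without hypoxia 7, hypoxia 8, T3 11 or T3 12 (adjusted p up to 0.15). Nrp2 was at 159, 113 and 125 CPM, 94.8, 99.2 and 71.7 CPM and 53.6, 66.4 and 72.7 CPM in the same order. It was called in hypoxia (-0.57, adjusted p = 0.015), but not without hypoxia 9 or without normoxia 1 (adjusted p up to 0.059). With T3 it was not called against hypoxia (-0.45, adjusted p = 0.084) and was called against normoxia (-1.03, adjusted p = 0.00021).

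Class A plexins, the signalling subunits that pair with neuropilins, were all 4 lower in hypoxia, with a median of -0.54, where 19.3% of all genes were lower. Plxna2 and Plxna4 fell most. These 2 span at least 100 kb, and of other genes that long 54.99% were lower. Plxna2 was at 477, 409 and 459 CPM in normoxia, 248, 263 and 251 CPM in hypoxia and 151, 197 and 237 CPM with T3, with no overlap between groups (-0.81 ± 0.13, adjusted p = 0.00098 in hypoxia). Plxna4 was at 408, 301 and 341 CPM in normoxia and 195, 236 and 194 CPM in hypoxia (-0.74, adjusted p = 0.0051). Plxna1 and Plxna3 fell less, by means from 635 to 501 CPM (-0.34) and from 204 to 163 CPM (-0.32). The Plxna3 call was lost with equal column sums and without hypoxia 9 (adjusted p up to 0.12). Against hypoxia, 0 of the 4 were called with T3, with a median of -0.27, and 4 of 4 were below normoxia. For Plxna1, 10.7% of the exon bases are shared with the antisense gene Gm26811, and the strand used in counting is not stated, so reads of that stretch cannot be assigned.

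Plxnd1, the receptor of Sema3e, was the most abundant plexin, at 93.4 CPM per kb of exon in normoxia. It was the 1 guidance gene called lower in hypoxia and higher with T3 against hypoxia. Its values were 723, 668 and 656 CPM in normoxia, 500.3, 513 and 528 CPM in hypoxia and 612, 606 and 624 CPM with T3 (chr6:115954811-115995005). The T3 libraries lay between the other groups, with no overlap on either side. The changes were -0.41 ± 0.05 (adjusted p = 0.00023), 0.26 ± 0.05 (adjusted p = 0.022) and, with T3 against normoxia, -0.15 ± 0.05 (adjusted p = 0.022). The same 3 hypoxia libraries serve in both of the first comparisons, so a low value there enters both with opposite sign. The T3 rise lost its call with no limit on low values and without hypoxia 7, hypoxia 8, T3 11 or T3 12 (adjusted p up to 0.10), and the difference from normoxia lost its call with equal column sums and without T3 11, T3 12 or normoxia 1 (adjusted p up to 0.38).

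Plxnc1, a receptor known to bind the membrane-anchored semaphorin Sema7a, was not called in hypoxia (133, 97.96 and 94.1 CPM in normoxia, 101, 112 and 72.4 CPM in hypoxia, -0.19). It was lower with T3, at 58.9, 56.4 and 65.3 CPM (-0.63 ± 0.16, adjusted p = 0.041), a call lost with no limit on low values, with the 2 groups alone and without hypoxia 7, hypoxia 8, T3 11, T3 12 or normoxia 2 (adjusted p up to 0.16). Among the class B plexins, receptors of class 4 semaphorins, Plxnb1 fell in hypoxia from 82.5, 90.7 and 85.97 to 66.9, 80.7 and 65.9 CPM (-0.28, adjusted p = 0.016), a call lost with equal column sums and without hypoxia 7, hypoxia 9 or normoxia 2 (adjusted p up to 0.19). Plxnb2 was at 116 to 140.2 CPM in the 9 libraries and was called in no comparison.

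Sema4d, Sema4f and Sema6a were the membrane-bound semaphorins called lower in hypoxia, where 19.3% of all genes were. In classes this small the counts cannot be told apart from that share. Of class 4, 2 of 6 were lower in hypoxia (Sema4d and Sema4f), and the class median was -0.05, or 0.09 with equal column sums. Of class 6, 1 of 4 was lower (Sema6a), and of class 5, 0 of 2. Sema6a, a transmembrane ligand of Plxna2 and Plxna4, was at 141, 138 and 150.3 CPM in normoxia, 96.02, 102 and 94.8 CPM in hypoxia and 55.1, 64.7 and 75.3 CPM with T3. The groups were fully apart, and T3 11 was the lowest library. The changes were -0.55 ± 0.09 (adjusted p = 0.0015) and -0.59 ± 0.09 (adjusted p = 0.013); the second lost its call without hypoxia 8 or T3 12 (adjusted p up to 0.069). Sema4d, a ligand of Plxnb1, was at 48.5, 44.8 and 44.5 CPM, 34.5, 37.5 and 31.8 CPM and 18.8, 24.4 and 28.5 CPM in the same order, with changes of -0.40 (adjusted p = 0.028) and -0.53 (adjusted p = 0.035). Its hypoxia call was lost with equal column sums, with no limit on low values and without hypoxia 7, hypoxia 9, normoxia 1 or normoxia 2 (adjusted p up to 0.13). Its T3 call was lost under the same settings as that of Plxnc1 (adjusted p up to 0.14).

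Sema4f fell in hypoxia from 87.2 to 92.3 to 62.8 to 77.8 CPM (-0.31, adjusted p = 0.015), a call lost with equal column sums (adjusted p 0.11). Sema4g was at 191 to 227 CPM, and Sema6b, the highest per kb of exon (36.9 CPM per kb), at 138 to 162 CPM. Sema4a, Sema4b, Sema4c and Sema6c were called in no comparison either. Sema5a and Sema6d were called only against normoxia with T3 (-0.82, adjusted p = 0.0014, and -0.53, adjusted p = 0.0023). Sema5b was called nowhere, at 6.66, 10.1 and 11.1 CPM in normoxia, 6.05, 13.8 and 15.1 CPM in hypoxia and 12.2, 11.2 and 10.01 CPM with T3. Its order was that of the summed astrocyte markers within normoxia (11.9, 45.9 and 88.8 CPM) and within hypoxia (40.01, 127 and 187 CPM), but not within the T3 libraries (100.1, 167 and 82.1 CPM). The part of glial cells in its values was not tested.

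**Figure D3:**
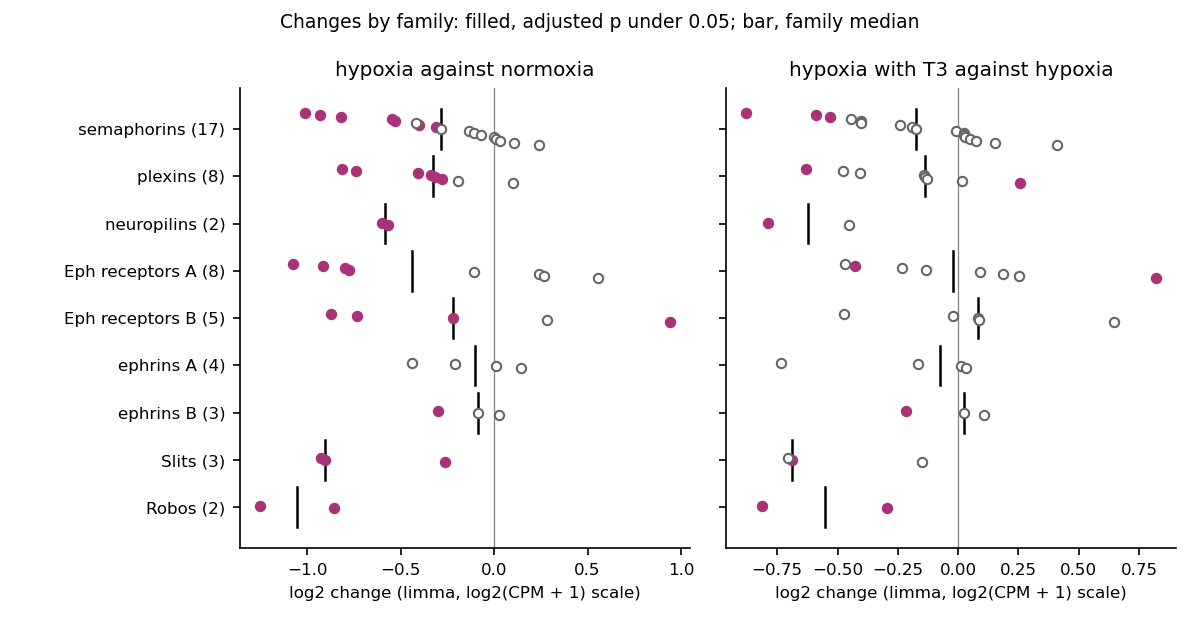
Log2 change of each guidance gene (points, 1 row per family with its number of genes) in hypoxia against normoxia (left) and in hypoxia with T3 against hypoxia (right), with filled points at an adjusted p under 0.05 and bars at family medians. In hypoxia the Slits, Robos and neuropilins lie wholly below 0. The Eph receptors spread to both sides from -1.08 to 0.94, and the ephrins lie between -0.44 and 0.14.

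Of 27 tested genes on the list of semaphorin and plexin effectors, 16 were lower and 1 was higher in hypoxia (19.3% and 14.3% of all genes), with a median of -0.20. Gene span was not taken into account in this count. Farp1, which couples class A plexins to Rac, fell from 386, 356 and 339 to 212, 230.3 and 204 CPM (-0.74, adjusted p = 5.5e-05) and again with T3 (-0.28, adjusted p = 0.043). Fyn, a kinase recruited to the Sema3a receptor, fell in hypoxia (-0.48). Pak1, a kinase that regulates actin through LIM kinase, was the 1 that rose (264, 240.3 and 233 to 277, 261 and 314 CPM, 0.20, adjusted p = 0.044), and it rose further with T3, to 410.2, 389 and 396 CPM (0.49, adjusted p = 0.0094). Of the 27, 1 was lower and 3 were higher with T3 against hypoxia (Pak1, Mical2 and Rnd1), where 3.75% and 2.73% of all genes were called. Rnd1 was next to the threshold (adjusted p = 0.0499). Sema7a, held on the list of other cues because its class lies outside the selection, was called in neither comparison, at 137, 148 and 144 CPM in normoxia, 86.8, 81.3 and 154 CPM in hypoxia and 152, 169 and 160.2 CPM with T3.

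Few ephrins were called. In hypoxia 0 of 4 ephrins A and 1 of 3 ephrins B were called, where 33.6% of all genes were. These families are too small to tell the counts apart from that share. Their medians were -0.10 and -0.09 and turned to 0.02 and 0.05 with equal column sums. Efnb3 was the most abundant of all 52 genes per kb of exon (119 CPM per kb in normoxia) and was called in no comparison, at 358 to 437 CPM over the 9 libraries. Efnb1, Efna2 and Efna3 were called nowhere as well, with highest values of 53.2, 28.2 and 52.8 CPM. For Efna3 and Efna4, 14.1% and 10.5% of exon bases are shared with an antisense gene.

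Efnb2, a transmembrane ligand of EphB receptors and of Epha4, was the ephrin that changed in all comparisons. It was at 225, 212 and 203 CPM in normoxia, 182, 175 and 161 CPM in hypoxia and 147, 147 and 151 CPM with T3, with the groups fully apart. The changes were -0.30 ± 0.06 (adjusted p = 0.0027) and -0.22 ± 0.06 (adjusted p = 0.048). The second call was lost with edgeR, with no limit on low values, with the 2 groups alone and without hypoxia 7, hypoxia 8, T3 11, T3 12, normoxia 2 or normoxia 3 (adjusted p up to 0.16). Efna5, a repellent ligand of several EphA receptors, was at 14.5, 11.4 and 13.9 CPM, 10.1, 11.6 and 7.19 CPM and 4.09, 4.86 and 7.36 CPM. Only the T3 against normoxia difference passed (-1.18 ± 0.20, adjusted p = 0.00051); in T3 against hypoxia the log2 change was -0.74 at an adjusted p of 0.050, next to the threshold. Efna4, at 1.73 to 3.08 CPM, was called against normoxia with T3 (-0.38, adjusted p = 0.02), a call lost with DESeq2 and without T3 12 or normoxia 1 (adjusted p up to 0.080).

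Eph receptors A split into a group that fell and a group that did not. Epha3, Epha5, Epha6 and Epha7 were lower in hypoxia, where 19.3% of all genes were, and Epha2, Epha4, Epha8 and Epha10 were not called. The genes that fell span at least 100 kb, and of other genes that long 54.99% were lower. Epha5 had the highest value of the family per kb of exon (14.6 CPM per kb in normoxia) and went from 259.6, 226 and 248 to 134, 149 and 137 CPM (-0.80 ± 0.09, adjusted p = 0.00013). With T3 it was at 117, 120.4 and 147 CPM, overlapping hypoxia. Epha7 was at 77.4, 77.8 and 76.1 CPM in normoxia, 39.6, 44.9 and 37.1 CPM in hypoxia and 25.7, 29.7 and 34.7 CPM with T3, fully apart at each step (-0.92 ± 0.10, adjusted p = 0.00014, then -0.43 ± 0.10, adjusted p = 0.037). The second call was lost under the same settings as that of Plxnc1 (adjusted p up to 0.15). Epha6, the longest gene of the 52 at 952 kb, was at 16.3, 12.6 and 15.6 CPM in normoxia and 6.61, 7.104 and 5.68 CPM in hypoxia (-1.08, adjusted p = 0.00024), and at 4.44, 3.76 and 5.005 CPM with T3 (-0.47, adjusted p = 0.054, not called). Epha3 fell in hypoxia from 21.5 to 22.9 to 10.8 to 13.6 CPM (-0.78).

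Epha4, a receptor for both ephrin classes with a known role at the corticospinal midline and in spines, was called nowhere, at 80.1, 66.3 and 64.6 CPM, 55.9, 58.4 and 83.9 CPM and 59.8, 73.1 and 92.9 CPM. Epha10 and Epha8 rose with T3 against normoxia. Epha10 was at 29.9, 33.3 and 28.6 CPM in normoxia, 34.2, 39.2 and 37.6 CPM in hypoxia and 50.7, 39.7 and 42.8 CPM with T3, with the groups fully apart. It was called against normoxia with T3 (0.52 ± 0.10, adjusted p = 0.00094) and missed the threshold in hypoxia (0.27, adjusted p = 0.051). Epha8 differed from normoxia with T3 by 0.33 ± 0.12 (adjusted p = 0.034), a call lost with no limit on low values and without T3 11, T3 12, T3 13, normoxia 2 or normoxia 3 (adjusted p up to 0.13).

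Epha2, an ephrin-A receptor best known from epithelia and dividing cells, was the lowest of the 52 genes per kb of exon in normoxia (0.0656 CPM per kb) and rose with T3. Its values were 0.208, 0.211 and 0.5002 CPM in normoxia, 0.452, 0.828 and 1.62 CPM in hypoxia and 2.52, 2.26 and 2.32 CPM with T3. All T3 libraries lay above all hypoxia libraries, while hypoxia 7 overlapped normoxia 3. The change was 0.82 ± 0.20 with T3 against hypoxia (adjusted p = 0.04), 1.37 ± 0.20 with T3 against normoxia (adjusted p = 0.0002) and 0.56 ± 0.20 in hypoxia (adjusted p = 0.052, not called). It exceeded 1 in 0 normoxia, 1 hypoxia and 3 T3 libraries, so it passed the limit through the group where it was high. Its order followed the astrocyte marker sums within normoxia and within hypoxia, not within the T3 libraries; their part was not tested. The T3 against hypoxia call was lost with DESeq2, with edgeR, with no limit on low values, with a pseudocount of 0.1, with the 2 groups alone and without hypoxia 7, hypoxia 8, T3 11, T3 12 or normoxia 2 (adjusted p up to 0.15).

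Of the Eph receptors B, Ephb1, Ephb2 and Ephb6 were lower in hypoxia and Ephb3 was higher, where 19.3% and 14.3% of all genes were called. Ephb1 went from 52.4, 41.5 and 43.9 to 20.5, 29.1 and 24.7 CPM (-0.87 ± 0.23, adjusted p = 0.015), a call lost without hypoxia 7 or normoxia 1 (adjusted p up to 0.055). Its T3 libraries, at 11.1, 18.2 and 25.6 CPM, overlapped hypoxia. Ephb2, which is known to cluster NMDA receptors at synapses, went from 136, 112 and 108 to 60.2, 73.6 and 79.3 CPM (-0.74 ± 0.14, adjusted p = 0.0032), with 57.02, 69.3 and 85.4 CPM under T3. Ephb6, a member without kinase activity, fell by less (-0.22, adjusted p = 0.045). That call was lost with edgeR, equal column sums, median-of-ratios scaling and no limit on low values, and it was kept in 2 of 9 fits that each left out 1 library (adjusted p up to 0.48). Ephb4, near the limit at 0.604 to 1.896 CPM, was called nowhere.

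Ephb3, a receptor of ephrins B with known roles in commissure formation, was the 1 guidance gene that rose in hypoxia. It was at 6.33, 7.13 and 11.4 CPM in normoxia, 14.4, 14.6 and 20.7 CPM in hypoxia and 28.3, 30.6 and 20.5 CPM with T3 (chr16:21204755-21223305). Every hypoxia library was above every normoxia library, and T3 13 overlapped hypoxia 9. The log2 change was 0.94 ± 0.21 in hypoxia (adjusted p = 0.0065), 0.65 ± 0.21 with T3 against hypoxia (adjusted p = 0.078, not called) and 1.59 ± 0.21 with T3 against normoxia (adjusted p = 0.00011). The hypoxia call held under every alternative and without any 1 library. Within each group Ephb3 had the same order as the summed astrocyte markers, which were 11.9, 45.9 and 88.8 CPM in normoxia 1 to 3, 40.01, 127 and 187 CPM in hypoxia 7 to 9, and 100.1, 167 and 82.1 CPM in T3 11 to 13. The part of glial cells in the Ephb3 values was not tested.

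**Figure D4:**
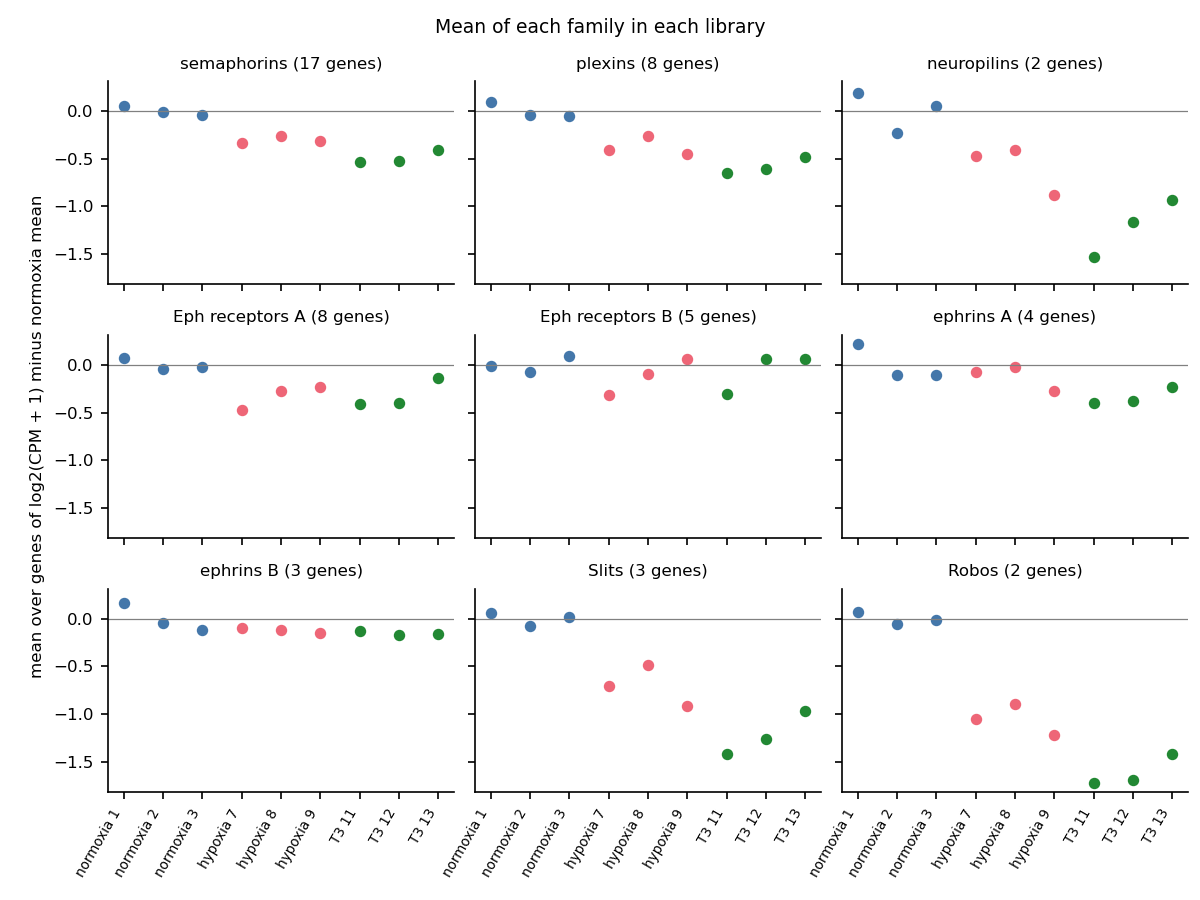
Mean over each family's genes of log2(CPM + 1) minus the normoxia mean, for each of the 9 libraries (normoxia blue, hypoxia red, hypoxia with T3 green; T3 11 to 13 on the axis are the hypoxia with T3 libraries). Slits, Robos and neuropilins step down from normoxia to hypoxia to hypoxia with T3, with T3 13 the least lowered T3 library, while ephrins B stay near 0.

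Of 22 tested genes on the list of Eph and ephrin effectors, 12 were lower and 0 were higher in hypoxia (19.3% and 14.3% of all genes), with a median of -0.33. Gene span was not taken into account in this count. The exchange factors Tiam1 and Kalrn, which activate Rac in dendritic spines, fell from 82.8, 75.8 and 77.4 to 32.4, 39.8 and 34.4 CPM (-1.13, adjusted p = 0.0021) and from a mean of 220.3 ± 23.6 to 109.8 ± 12.1 CPM (SD, n = 3; log2 change -0.998, adjusted p = 0.00063). Ngef, the exchange factor ephexin that acts downstream of EphA receptors, fell by 0.50 on the log2 scale. With T3, 2 of 22 were lower than in hypoxia (Grip1 and Anks1, against 3.75% of all genes) and 1 was higher (against 2.73%), Chn1, a Rac-inactivating effector of Epha4 (100.3, 105 and 126 CPM in hypoxia, 146, 139 and 142 CPM with T3, 0.37).

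Other guidance genes, of netrin and related pathways, were counted from a list of 29. Of the 28 tested, 15 were lower and 1 was higher in hypoxia (19.3% and 14.3% of all genes), with a median of -0.30. Gene span was not taken into account in this count. With T3 against hypoxia 5 were lower and 1 was higher (3.75% and 2.73% of all genes). The netrin receptor gene Dcc was at 107, 97.9 and 137 CPM in normoxia, 37.8, 55.1 and 32.3 CPM in hypoxia and 16.2, 18.4 and 28.8 CPM with T3 (-1.45, adjusted p = 0.00089, then -0.95, adjusted p = 0.035). Unc5c, the repulsive netrin receptor, was at 66.2, 67.6 and 71.2 CPM, 26.1, 34.5 and 17.6 CPM and 7.21, 8.68 and 16.1 CPM (-1.41 and -1.24). Flrt2, Met and Unc5d were also lower in both comparisons. Cntn2, an axonal adhesion molecule, was the 1 that rose in each, from 139, 111 and 103 to 154, 152 and 162 to 216, 206 and 221 CPM (0.41 and 0.46).

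By role, 11 of 27 ligands (semaphorins, ephrins and Slits) and 17 of 25 receptors (plexins, neuropilins, Eph receptors and Robos) were lower in hypoxia. Of the receptors 1 was higher, and over all genes 19.3% were lower and 14.3% higher. With T3 against hypoxia 5 ligands and 5 receptors were lower and 2 receptors were higher (3.75% and 2.73% of all genes). Ligand and receptor of a pair could both fall: Slit2 with Robo1 and Robo2, and Sema3a with Nrp1, were lower in hypoxia and lower again with T3, and Sema6a fell with Plxna2 and Plxna4 in hypoxia. Sema3e fell in hypoxia with its receptor Plxnd1, and with T3 against hypoxia Sema3e was -0.40 (not called) where Plxnd1 was 0.26. The difference in share between ligands and receptors was not tested.

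Most of the members that fell were long genes. The span of each gene from first to last annotated base (GENCODE M21) ranged from 4.64 kb (Efna4) to 952 kb (Epha6), with a median of 112 kb, where that of all genes above the limit with a span was 25.5 kb. No member lay between 46.3 and 108 kb, so they were split at 100 kb, a value chosen after seeing the data. Of the 27 long members 21 were lower in hypoxia (77.8%) and 0 were higher, with a median of -0.74. Of the 25 short ones 7 were lower (28.0%) and 1 was higher, with a median of -0.00083. The 7 were Efnb2, Ephb6, Plxna1, Plxna3, Plxnb1, Plxnd1 and Sema4f, and the 6 long members not called were Efna5, Epha4, Plxnc1, Sema5a, Sema5b and Sema6d.

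Other genes showed a split of the same direction. Among 1924 other genes of at least 100 kb, 54.99% were lower in hypoxia, with a median of -0.32. Among 10298 shorter ones, 12.7% were lower and 16.6% higher, with a median of 0.04. The share of long guidance genes called lower was thus to be read against 54.99%, not against the 19.3% of all genes. The lists of effectors and other cues were set only against all genes and were not counted by span. Of the effectors named above, Farp1, Tiam1 and Kalrn, which fell in hypoxia, span 249, 357 and 604 kb. Pak1, which rose, spans 124 kb. Within the bin of 200 kb or more the shares were 12 of 15 members (80.0%) and 71.5% of 817 others, with medians of -0.86 and -0.52. From 100 to 200 kb they were 9 of 12 (75.0%) and 42.8% of 1107, with medians of -0.54 and -0.23. With equal column sums 17 of the 27 long members were lower, and of the 25 short ones 3 were lower and 7 higher. Of all 12923 genes 1232 were lower and 3974 higher under that scaling, which was not counted by span for other genes.

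**Figure D5:**
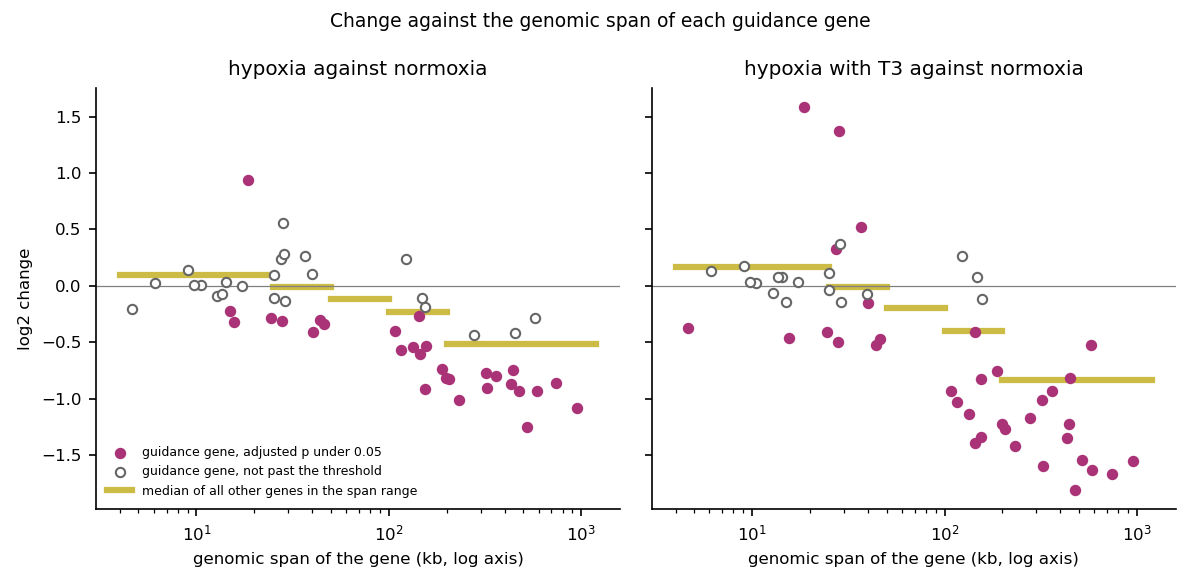
Log2 change of each guidance gene (points, filled at an adjusted p under 0.05) against the genomic span of the gene in kb on a log axis, for hypoxia against normoxia (left) and hypoxia with T3 against normoxia (right). Yellow bars are the medians of all other genes in 5 span ranges. Members over 100 kb lie mostly below 0 and mostly below the bars, and those under 50 kb scatter around 0.

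With T3 against hypoxia, 9 of the 27 long members were lower (33.3%) and 0 were higher, where 14.8% of other long genes were lower. Of the 25 short members 1 was lower (Efnb2) and 2 were higher (Epha2 and Plxnd1), where 1.64% and 3.2% of other short genes were called. With T3 against normoxia, 24 of 27 long members were lower (88.9%, against 74.1% of other long genes), and the exceptions were Epha4, Sema3c and Sema5b. The 4 members that were higher were all short, where 29.9% of other short genes and 2.7% of other long genes were higher. Of the 25 short members 16% were higher and 28% lower, against 29.9% and 21.3% of other short genes. These differences amount to few genes and were not tested. Across the 52 genes, Pearson's r between the log2 change and the log10 span was -0.74 in hypoxia, -0.64 with T3 against hypoxia and -0.75 with T3 against normoxia, and across the 12274 genes with a span it was -0.46, -0.47 and -0.53. These are descriptions across genes of the same 9 libraries, and genes are not independent replicates. The part of length in the changes of single families was not tested.

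Fewer calls were kept in T3 against hypoxia than in the other comparisons. Of the 12 called members, 1 kept its call under all alternatives and all single-library omissions, against 19 of 29 in hypoxia and 32 of 35 with T3 against normoxia. The 10 lower calls became 2 without hypoxia 7, 1 without hypoxia 8, 15 without hypoxia 9, 2 without T3 11, 1 without T3 12, 21 without T3 13 and 6 without normoxia 2. The 2 higher calls became 0 without hypoxia 7, hypoxia 8, T3 11 or T3 12 and 1 without normoxia 2. Calls over all genes moved in the same fits. The 485 lower ones became 41, 14 and 558 without hypoxia 7, 8 and 9. Without T3 11, 12 and 13 they became 23, 12 and 1104. The 353 higher ones became 47, 29, 23 and 19 without hypoxia 7, hypoxia 8, T3 11 and T3 12. Without normoxia 2 there were 255 lower and 200 higher. These swings are thus not particular to the guidance genes. In hypoxia against normoxia, the 1 higher call became 4 without hypoxia 7, where those over all genes went from 1846 to 1555. Directions of called members did not reverse in any of these fits. Calls of single genes on the lists of effectors and other cues were not followed through the alternatives or the omissions.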

How the data were processed

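Polyadenylated RNA of 9 libraries of cultured mouse neurons, 3 per group, was sequenced. The authors deposited 1 table with a column per library, whose values are a signal, CPM after TMM scaling. The submitters' processing notes name RSEM 1.2.15, Bowtie2 2.1.0, mm10 as the genome build, and edgeR without a version. Filters, the annotation release and the strand used in counting are not given in the sources used here. Within 0.01 reads, 99.93% of the deposited values were whole multiples of the value of 1 read, which gave reads per library; 35 rows were off this step, 0 of them guidance genes. An unnamed column with 4 numbers was not used.

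Genes above 1 in at least 3 libraries (12923) were fitted together with limma 3.58.1 in R 4.3.3 (lmFit, eBayes with a trend) on log2(value + 1), two-sided, with Benjamini-Hochberg adjustment over all of them and a threshold of 0.05. TMM scaling sets the typical gene to no change, so every change is relative to it. Alternatives were pseudocounts of 0.1 and 5, no limit on low values or a mean of at least 5, only the 2 groups compared, median-of-ratios scaling, equal column sums, edgeR 4.0.16 and DESeq2 1.42.0 on recovered reads, off-step rows left out, and each library left out. Spans, exon lengths and overlaps came from GENCODE M21 (GRCm38, the build called mm10), and upstream sequences from RefSeq (GRCm38.p6). Exon lengths are of the merged exons of all annotated transcripts of a gene.

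The members, the lists of effectors and other cues, the markers and the genes used to check the labels were chosen with earlier results of these data known. Genes singled out are the members called in hypoxia that rose most and fell most, 10 in each direction, 8 in each direction likewise for T3 against hypoxia, and the member of each family with the highest mean value. The other members are given to account for each family, and the effectors and other cues named were chosen after their values were seen.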

Additional observations from a re-analysis of the deposited data

How the results depend on the processing

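In hypoxia against normoxia, 28 guidance genes were lower, and 20 to 29 under the alternatives that kept all libraries; leaving out 1 library gave 22 to 30. The 1 higher call became 7 with equal column sums, 3 with DESeq2 and with edgeR, and 2 with a mean of at least 5, median-of-ratios scaling, only the 2 groups compared or a pseudocount of 0.1; leaving out 1 library gave 1 to 4. In hypoxia with T3 against hypoxia, the 10 lower calls became 16 with DESeq2, 3 with no limit on low values and 5 with only the 2 groups compared, and the 2 higher calls became 0 with no limit and 1 with edgeR, a mean of at least 5, only the 2 groups compared or a pseudocount of 0.1. Leaving out 1 library gave 1 to 21 lower and 0 to 3 higher. Over all genes the 485 lower and 353 higher calls became 968 and 760 with DESeq2 and 79 and 93 with no limit. With only the 2 groups compared they became 132 and 143, and leaving out 1 library gave 12 to 1104 and 19 to 713. In hypoxia with T3 against normoxia, the 4 higher calls became 8 with equal column sums (3 to 6 without 1 library), and the 31 lower calls stayed at 29 to 31 (29 to 32 without 1 library). With equal column sums, higher calls over all genes went from 1846 to 3974 in hypoxia and from 3300 to 4527 with T3 against normoxia. The cause of these differences was not tested. No called member reversed. No paired analysis was possible because hypoxia and T3 columns carry numbers (7 to 9 and 11 to 13) that the sample titles do not use. Depth limits Epha2, Ephb4 and Sema3d, which are near 1 CPM.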
